A study of Mus musculus with 6 samples.

Results

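Oxidative phosphorylation genes were examined in ribosome-bound mRNA of the adult mouse dentate gyrus. The genes were protein-coding ones whose symbols start with Nduf (followed by a, b, c, s or v), Uqcr, Cox4 to Cox8 or Atp5, together with Sdha, Sdhb, Sdhc and Sdhd. Of 91 such genes, 89 passed a level of 1 CPM (counts scaled to the depth of the library) in at least 1 of 6 samples, among 15056 genes tested and 37620 genes counted. The genes that did not pass, Cox8c and a second identifier named Ndufb8, had 0 counts in every sample. The set was divided into 7 core and 29 accessory subunits of complex I, 4 subunits of complex II, 8 of complex III, 18 of complex IV, 5 of the F1 head and 10 of the Fo part and stalk of complex V, and 8 assembly and related genes. Ndufa4 and Ndufa4l2 were counted with complex IV, where the NDUFA4 protein is now placed despite its name. The last group held Ndufaf1 to Ndufaf4, Atp5s, Atp5sl, Cox7a2l and Cox4nb, and the product of Cox4nb is now known as a subunit of the endoplasmic reticulum membrane complex, not of the respiratory chain.

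The study compared mice with floxed Klf9 alleles (Klf9 f/f, 3 samples) with mice that carried wild-type alleles (Klf9 +/+, 3 samples). Klf9 is a transcription factor, and the comparison asked which translated mRNAs change when it is deleted from neural stem cells. All mice of both groups carried Gli1CreERT2 and the Rpl22HA f/+ (RiboTag) allele, were 2 to 3 months old, and received 3 tamoxifen injections 12 hr apart, after which an HA-tagged ribosomal protein was made in recombined cells and Klf9 was recombined in Klf9 f/f mice. Ribosomes were precipitated 4 days after the last injection, and each sample pooled 6 dentate gyri from 3 mice. The Gli1 driver marks radial glia-like stem cells and also astrocytes. The titles gave 2 library series, YTa22 with 2 samples of each genotype (replicates 1 and 2) and YTa32 with 1 of each (replicate 3), and the sources used here do not say what set the series apart.

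Oxidative phosphorylation takes place in the inner mitochondrial membrane. Complexes I and II pass electrons from NADH and succinate to ubiquinone, complex III hands them to cytochrome c, complex IV reduces oxygen, and complex V (ATP synthase) uses the proton gradient to make ATP. Most subunits are encoded in the nucleus and the rest in mitochondrial DNA, which is translated on separate ribosomes inside the organelle. Quiescent adult neural stem cells and astrocytes are known for a strong reliance on glycolysis and fatty acid use, and oxidative phosphorylation genes rise along the neurogenic lineage.

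Each YTa22 sample had 52188635 to 66343759 counts on genes, while the totals were 27594529 (Klf9 +/+) and 21594714 (Klf9 f/f) in YTa32. The series also differed in reads that could not be placed on 1 gene: ambiguous reads made up 2.42 to 2.64% in YTa22 and 1.35 to 1.38% in YTa32, and reads with several alignments 7.63 to 8.95% and 13.0 to 13.6%. Klf9 itself stood at 201, 204 and 139 CPM in the Klf9 +/+ samples and 114, 121 and 120 CPM in the Klf9 f/f samples, with no overlap (p = 0.1 in a two-sided exact permutation test, which can give no smaller value for 3 against 3). Of the markers of radial glia and astrocytes, all 12 were measured, and their summed level ran from 13612 to 17096 CPM in Klf9 +/+ and from 16915 to 19510 CPM in Klf9 f/f. All 12 choroid plexus markers were measured too, at a summed 149.9 to 2751 CPM in Klf9 +/+ and 28.4 to 422 CPM in Klf9 f/f. The 37 genes of the mitochondrial genome, including all 13 subunits encoded there, were listed at 0 in all 6 samples, so the values below are those of nuclear genes alone.

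The 89 genes took a larger share of the counts in YTa22 than in YTa32. Their share of all gene counts was 2.74% and 2.24% in Klf9 +/+ and 2.18% and 2.45% in Klf9 f/f within YTa22. In YTa32 it was 1.55% in Klf9 +/+ and 1.53% in Klf9 f/f. Every YTa22 sample thus stood above both YTa32 samples, whereas the genotypes overlapped.

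Levels were compared between genes as FPKM, the TMM-scaled CPM per kilobase of exonic length. The median level of the 89 genes was 138.6 FPKM, against 6.18 FPKM over all genes tested. Complex IV held the widest range. Cox4i1, the ubiquitous form of subunit 4, had the highest mean level of all 89 genes at 975 FPKM (range over samples 605 to 1404). It was followed within complex IV by Ndufa4 at 876, Cox6b1 at 792, Cox8a at 777 and Cox6a1 at 665 FPKM. Cox6a2, the heart and muscle form of subunit 6a, was the lowest at 1.10 FPKM. In complex I, the accessory subunit Ndufc2 led with a mean level of 957 FPKM (472 to 1481), and Ndufb2 stood lowest at 13.6 FPKM. Among core subunits of complex I, which carry the flavin and iron-sulfur clusters, levels ran from 33.6 FPKM for Ndufs1 to 214 FPKM for Ndufs8.

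The 4 subunits of complex II, the succinate dehydrogenase that also belongs to the TCA cycle, lay closer together. Sdhb, the iron-sulfur subunit, had a mean level of 186 FPKM, the membrane anchor Sdhd 180, the flavoprotein Sdha 139 and the other anchor Sdhc 82.6 FPKM. Sample ranges of Sdhb (114 to 240 FPKM), Sdhd (135 to 211) and Sdha (127 to 168) overlapped when the series were pooled. Sdhb stood above Sdha in every YTa22 sample and below it in both YTa32 samples, so their order depended on the series. In complex III the levels ran from 347 FPKM for Uqcr10 to 83.9 FPKM for Uqcrq, both small subunits. In complex V, the catalytic beta subunit Atp5b stood highest at 461 FPKM (376 to 532) and the alpha subunit Atp5a1 at 392 FPKM (316 to 438). Atp5e, the epsilon subunit of F1, stood lowest in the head at 80.6 FPKM. In the membrane part, levels ran from 249 FPKM for Atp5g3, one of 3 genes for the c-ring subunit, to 29.0 FPKM for Atp5l. The assembly and related genes lay between 64.1 FPKM (Ndufaf2) and 10.4 FPKM (Ndufaf4, both complex I assembly factors).

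**Figure D1:**
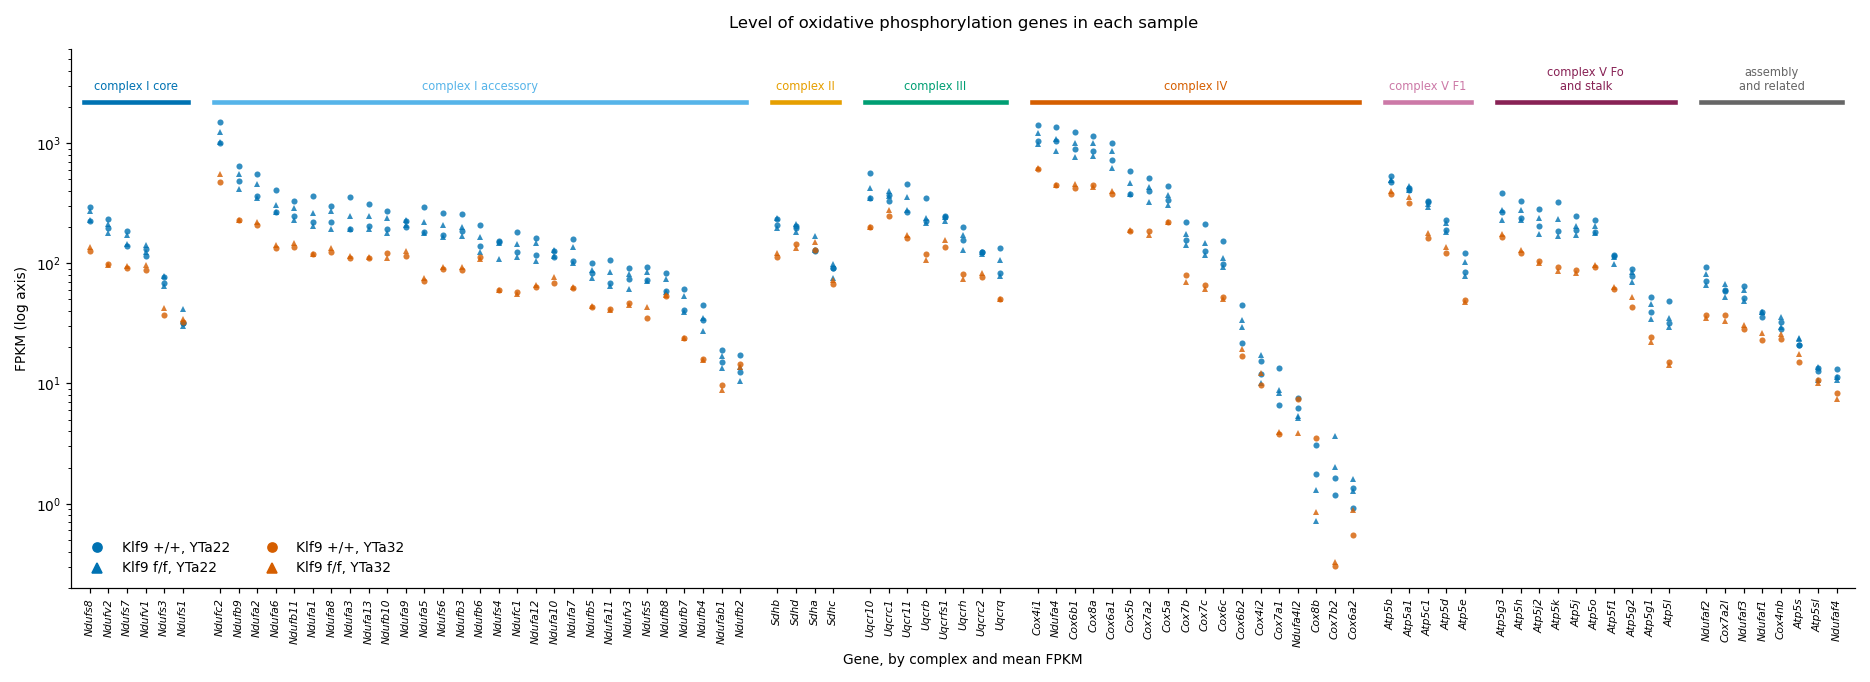
Level of 88 of the genes in each sample, in FPKM on a log axis, by complex and in order of mean level; circles are Klf9 +/+, triangles Klf9 f/f, blue YTa22 and orange YTa32. Orange points lie below blue ones for most genes, while Sdha, Ndufs1 and Ndufb2 mix both colours.

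These levels depend on the length that is assumed for each mRNA. With the mean length of annotated transcripts in place of the union of exons, the median rose from 138.6 to 245.0 FPKM, Atp5b moved from rank 7 to rank 1 and Sdha from rank 45 to rank 10. Levels also depend on how far an mRNA can be told apart from other sequence, since reads of 50 bases with more than 1 alignment were not counted. Of all windows of 50 bases in the exons of each gene, a median of 0.277% occurred again in the genome, but the share was 100% for Atp5g2, 86.5% for Atp5l, 62.2% for Cox5b and 57.5% for Cox7a2l. One repeated window of each of the first 3 is shown, since reads from such windows were not counted. Each is printed on the strand of the gene (build mm9), and windows across splice junctions were not examined.

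Atp5g2, chr15:102493456-102493505, minus strand, 4 copies in the genome: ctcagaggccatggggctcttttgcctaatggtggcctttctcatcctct
Atp5l, chr9:44721478-44721527, minus strand, 10 copies: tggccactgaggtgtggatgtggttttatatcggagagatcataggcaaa
Cox5b, chr1:36748432-36748481, plus strand, 3 copies: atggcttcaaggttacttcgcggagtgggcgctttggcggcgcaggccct

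Counts were also made without regard to strand. Exons of 19 of the 89 genes overlapped another gene, and over 20% of the exonic bases were shared for Ndufa13 (30.2%, with Tssk6), Ndufb6 (39.0%), Cox5a (38.7%) and Atp5o (44.0%). Reads in shared bases could not be assigned to either gene, so the levels of these genes are uncertain.

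Oxidative phosphorylation genes were lower in YTa32 than in YTa22 in every complex. With genotype in the model, the series difference passed an adjusted p of 0.05 in the lower direction for 74 of 89 genes, against 16.6% of all genes tested (edgeR quasi-likelihood test, Benjamini-Hochberg over 15056 genes). None of the 89 passed in the higher direction, against 12.9% of all genes. The median difference, YTa32 over YTa22, was -0.96 on the log2 scale, or 0.515-fold, while the median of all genes was 0.030. The difference was below 0 for 86 of 89 genes and for 47.9% of all genes. Without a model, both YTa32 samples lay below all 4 YTa22 samples for 83 of 89 genes, against 28.3% of all genes. The number called rests on both YTa32 samples. It fell when either was left out, in the set and also over all genes tested, and 1 sample then remained in that series. The median difference of the set was -0.85 without Klf9 +/+ replicate 3 and -1.06 without Klf9 f/f replicate 3. Choroid plexus markers differed between the series in the opposite direction (12 of 12 called higher in YTa32, median 2.95 on the log2 scale). Both YTa32 samples lay above all 4 YTa22 samples for only 3 of these 12 markers. Whether the markers, the depth or the share of reads with several alignments took part in the difference of the 89 genes was not tested.

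By complex, all 8 genes of complex III and all 10 of the Fo part and stalk were called lower in YTa32, with median log2 differences of -1.005 and -1.08. In complex I, 26 of 29 accessory subunits (median -1.03) and 6 of 7 core subunits (median -0.78) were called. The steepest of them was Ndufa5, an accessory subunit of the arm that faces the matrix. Ndufa5 stood at 302, 187, 186 and 228 CPM in the YTa22 samples (Klf9 +/+ 1 and 2, Klf9 f/f 1 and 2), and at 73.1 and 78.6 CPM in the YTa32 samples (Klf9 +/+, Klf9 f/f). The groups did not overlap, and the log2 difference was -1.57 ± 0.22 (SE, adjusted p = 0.0041). Ndufs1, the largest core subunit, behaved otherwise, with 121, 119, 156 and 114 CPM in YTa22 and 122 and 129 CPM in YTa32. Its samples overlapped, with a log2 difference of -0.02 ± 0.16 (adjusted p = 0.93).

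Complex II was split. Within YTa22, Sdha stood at 503 and 495 CPM in Klf9 +/+ and 654 and 498 CPM in Klf9 f/f, and in YTa32 at 503 (Klf9 +/+) and 579 CPM (Klf9 f/f). The 2 series overlapped, and the log2 difference was 0.0093 ± 0.16 (adjusted p = 0.97). Sdhb stood at 524, 468, 440 and 537 CPM in YTa22 and at 254 and 275 CPM in YTa32, without overlap (log2 difference -0.90 ± 0.16, adjusted p = 0.0057). Sdhd was called as well (-0.51 ± 0.14), and Sdhc was not (-0.36 ± 0.16, adjusted p = 0.11).

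In complex IV, 13 of 18 genes were called lower in YTa32 (median -1.11). Cox4i1 had levels of 953, 701, 668 and 817 CPM in YTa22 and 411 and 423 CPM in YTa32. Cox6a1, the ubiquitous form of subunit 6a, had 707, 508, 436 and 604 CPM in YTa22 and 267 and 281 CPM in YTa32, a log2 difference of -1.03 ± 0.21 (adjusted p = 0.0080). Both genes were without overlap between the series. The 5 genes of complex IV that were not called were Cox4i2, Cox6a2, Cox6b2, Cox8b and Ndufa4l2, all of them minor forms of a subunit with a more abundant relative. Cox7b2, a form known from testis, was below 2.0 CPM in every sample and entered the test only through YTa22 samples above 1 CPM, so the filter itself favoured its difference of -2.64 ± 0.59. Among the 86 genes above 1 CPM in all 6 samples, 73 were called lower in YTa32.

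In the F1 head, 3 of 5 genes were called lower in YTa32. Atp5b stood at 2254, 2025, 2073 and 2087 CPM in YTa22 and at 1591 and 1684 CPM in YTa32. The series did not overlap, though the log2 difference of -0.37 ± 0.15 did not pass the test (adjusted p = 0.093). Atp5a1 was similar, with a log2 difference of -0.32 ± 0.15 (adjusted p = 0.12). The small epsilon subunit Atp5e differed more, at 213, 148, 138 and 180 CPM in YTa22 and 86.8 and 83.4 CPM in YTa32 (-0.99 ± 0.19, adjusted p = 0.0072). In the Fo part, Atp5k (-1.34 ± 0.25) and Atp5l (-1.29 ± 0.23) had the largest differences. Ndufc1 (-1.31 ± 0.20) was the remaining gene among the 5 with the largest called differences, and Sdhd, Uqcrc1 (-0.49), Ndufv1 (-0.46) and Atp5s (-0.45) were among the 5 with the smallest.

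**Figure D2:**
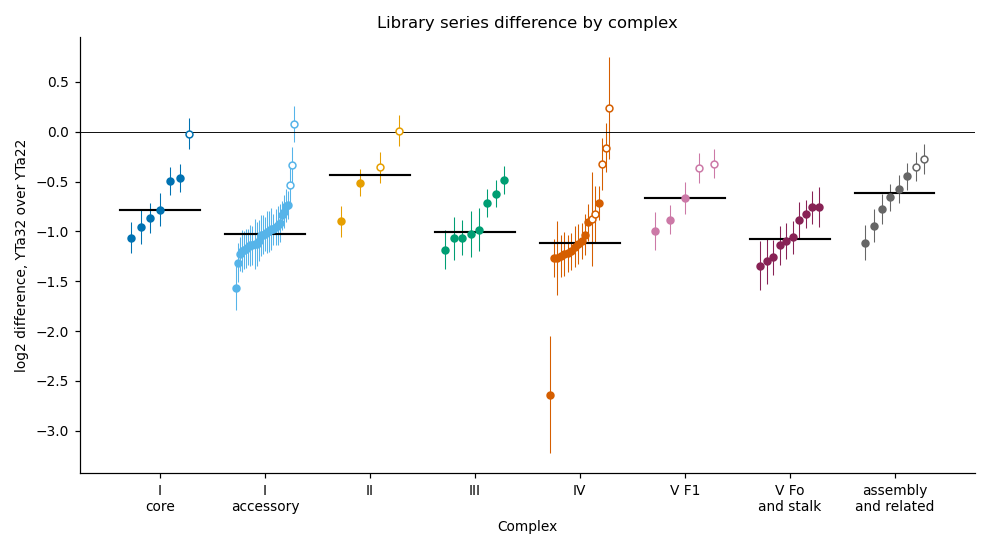
Library series difference of each gene (log2, YTa32 over YTa22, with genotype in the model) by complex; bars are standard errors of the fit, filled points have an adjusted p under 0.05 and black lines are medians. Medians lie between -1.11 (complex IV) and -0.43 (complex II), and 74 of 89 points are filled, all below 0.

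The genes of the set are short, with a median exonic length of 1243 base pairs against 3586 over all genes tested, and the series difference went with length across all genes. Genes under 1 kb had a median log2 series difference of -1.04 over all 903 such genes and -1.10 over the 35 members. Between 1 and 2 kb the medians were -0.50 over 2340 genes and -0.99 over 27 members, and between 2 and 4 kb -0.0042 over 5234 genes and -0.68 over 20 members. At 4 kb and over they were 0.26 over 6558 genes and -0.80 over 7 members. Under 1 kb the set thus had nearly the median of other short genes, and in the longer classes its median was lower than theirs. In the same order of classes, 63.9%, 37.6%, 13.2% and 5.31% of all genes were called lower, and 29, 27, 14 and 4 members.

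Several members have exonic lengths far above their coding length, such as Ndufb2 (5628 base pairs of exon, 315 coding) and Atp5g1 (4908 and 408). By coding length, the medians were -0.61 over all genes and -1.03 over 65 members under 600 base pairs, -0.18 and -0.83 (15 members) from 600 to below 1200, and 0.23 and -0.46 (9 members) from 1200 base pairs up. Sdha, Ndufs1, Atp5b and Atp5a1, whose series difference did not pass the test, are among the 9 members with the longest coding sequences. Of these 9, 5 were called lower in YTa32, against 4.25% of all genes in that class. Over the 89 genes, Spearman's rho between the series difference and coding length was 0.591, and 0.488 with exonic length. Over 15035 genes with a length the latter was 0.481. These correlations run across genes that share libraries and depth, and genes are not independent replicates. Why length and series difference moved together was not tested.

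**Figure D3:**
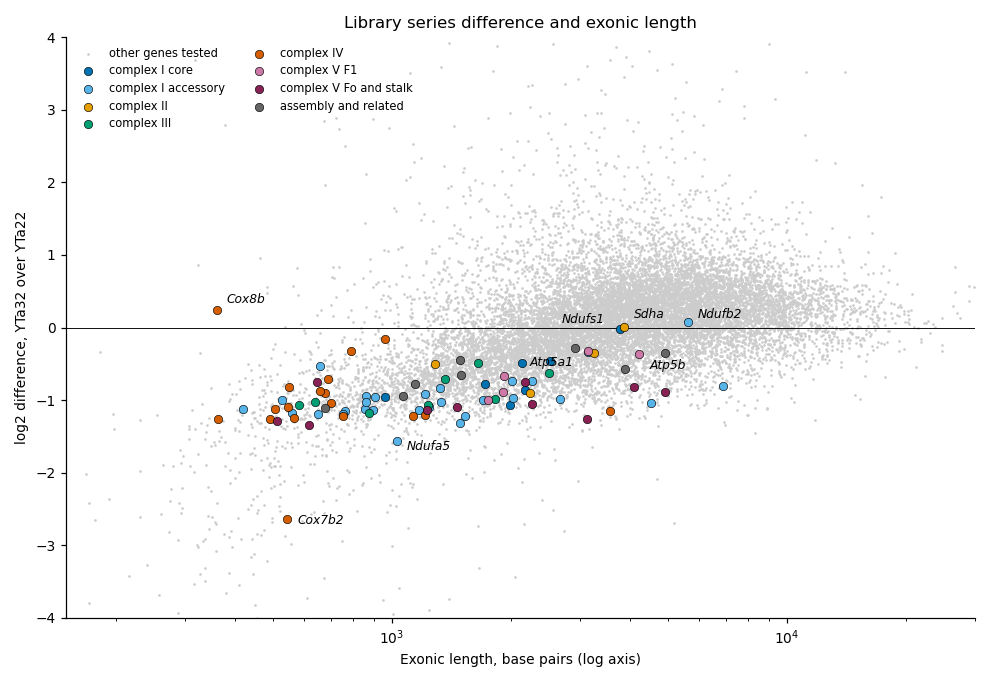
Library series difference (log2, YTa32 over YTa22) against exonic length in base pairs (log axis) for the 89 genes, coloured by complex, and other genes tested in grey; 77 grey genes lie outside the axes. Grey points bend downward under 1 kb, where the 35 members have a median of -1.10, and Sdha, Ndufs1 and Ndufb2 lie near 0.

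The order of levels within the set was similar in both series, although ratios between genes changed, since the series difference ran from -2.64 to 0.24. Over the 89 genes, log2 CPM of the Klf9 +/+ samples of YTa22 (mean) and of YTa32 had a Pearson r of 0.979 and a Spearman rho of 0.952. This describes genes with a wide range of levels, measured in the same libraries.

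Promoters of the genes were searched for known elements. RefSeq promoters (build GRCm38.p6, 250 bases before to 50 after the start site) were matched for 74 of 89 genes by symbol or synonym. The palindromic element known to be bound by NRF1 (nuclear respiratory factor 1), GCGC and GCGC held apart by the spacer NT, was searched on both strands and was found in 18 of the 74 promoters (24.3%), against 5.19% of 27025 genes. The GC box GGGCGG, to which Sp and Klf family factors are known to bind, was found in 44.6% of the 74 and 38.2% of all. Such a match is a description of the letters and not of binding. The 27025 genes are all those in the promoter set and more than the 15056 tested, so they are not matched to the 74 by expression. The promoters of 2 genes with several matches are shown with the motif in capitals, since Sdha did not differ between the series and Cox6a1 did.

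Sdha, chr13:74350191-74350490, minus strand, 3 matches: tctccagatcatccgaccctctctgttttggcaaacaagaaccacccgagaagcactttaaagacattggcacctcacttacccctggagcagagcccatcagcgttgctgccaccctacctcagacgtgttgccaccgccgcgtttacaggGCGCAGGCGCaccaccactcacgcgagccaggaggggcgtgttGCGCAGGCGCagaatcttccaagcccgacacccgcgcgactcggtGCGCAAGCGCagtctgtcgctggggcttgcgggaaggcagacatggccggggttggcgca
Cox6a1, chr5:115348909-115349208, minus strand, 2 matches: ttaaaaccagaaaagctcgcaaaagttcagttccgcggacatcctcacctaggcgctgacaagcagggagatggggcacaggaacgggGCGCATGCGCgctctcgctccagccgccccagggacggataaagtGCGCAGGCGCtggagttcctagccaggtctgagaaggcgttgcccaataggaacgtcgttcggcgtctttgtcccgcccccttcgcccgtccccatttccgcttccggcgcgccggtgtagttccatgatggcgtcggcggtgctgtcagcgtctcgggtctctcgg

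The first match lies 98 bases before the start site in Sdha and 162 bases before it in Cox6a1. The median log2 series difference was -1.003 for the 18 genes with the motif and -0.985 for the 56 without it.

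By genotype, the oxidative phosphorylation genes differed little. With the library series in the model, no gene of the set was higher in Klf9 f/f at 1.2-fold and an unadjusted p under 0.05, against 1.82% of all genes tested, and 2 were lower, against 2.50% of all genes. The 2 are Ndufa4l2 and Cox8b, both at low levels, and Cox8b entered the test only through Klf9 +/+ samples above 1 CPM. An adjusted p under 0.05 was reached by 0 of the 89 and by 0 of the 15056 genes (edgeR quasi-likelihood test; 4.32% of all genes had an unadjusted p under 0.05). Over all genes the likelihood-ratio test of edgeR gave 13 higher and 45 lower and DESeq2 7 and 32, with 0 genes of the set in either. The median log2 fold change, Klf9 f/f over Klf9 +/+, was -0.10, against 0.00084 over all genes, and 82 of the 89 genes stayed within a change of 1.2-fold. A fold change below 0 was found for 66 of 89 genes and for 49.8% of all genes. Short genes leaned the same way, with 1316 below 0 among all 1809 genes of under 600 coding base pairs. Of the members in that class, 58 of 65 were below 0.

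This small median depends on single samples. Klf9 +/+ replicate 1 had the highest level of all 6 samples for 68 of the 89 genes, and the highest among the YTa22 samples for 69, against 25.3% of all genes. Without it, the median fold change was 0.064 on the log2 scale in place of -0.10, and 28 of 89 genes were below 0 in place of 66. Without Klf9 f/f replicate 1 the median was -0.0070, and 47 genes were below 0. The samples of 1 genotype in YTa22 differed by more than the genotypes did. Klf9 +/+ replicate 1 exceeded replicate 2 for 84 genes, with a median log2 difference of 0.41, and Klf9 f/f replicate 2 exceeded replicate 1 for 80 genes, with a median difference of -0.29 (replicate 1 minus replicate 2). Over all genes under 1 kb the same differences had medians of 0.32 and -0.31, and over all genes tested they were -0.0023 and -0.0026.

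Within the series the genotype difference had different signs. In YTa22, 75 of 89 genes were lower in Klf9 f/f by mean log2 CPM (median -0.15), against 50.8% of all genes. In YTa32, 31 of 89 were lower (median 0.046), against 46.0% of all genes. Among all 1809 genes of under 600 coding base pairs, 1358 were lower in YTa22 and 945 in YTa32. Of the 89, 44 were lower in YTa22 and higher in YTa32, 31 were lower in both, 14 were higher in both and 0 were higher in YTa22 and lower in YTa32. The interaction of series and genotype did not pass an unadjusted p of 0.05 for any of the 89 genes, against 1.53% of all genes. The smallest p values for it were 0.30 (Atp5g2), 0.32 (Ndufs5) and 0.33 (Atp5g3) in edgeR's quasi-likelihood test, where the adjusted p was 1.00 for each. With 1 sample per genotype, YTa32 gives no spread of its own, and the fit assumes that it varies like YTa22.

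Samples of the genotypes did not overlap within either series, in the same direction, for 3 genes that were higher in Klf9 f/f (Atp5s, Ndufaf1 and Cox7b2), against 7.78% of all genes. In the lower direction there were 3 (Ndufa4l2, Cox8b and Ndufs4), against 5.53% of all genes. Cox7b2 entered the test only through Klf9 f/f samples above 1 CPM and Cox8b only through Klf9 +/+ samples. The filter itself thus favoured the separation of Cox7b2 and Cox8b.

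**Figure D4:**
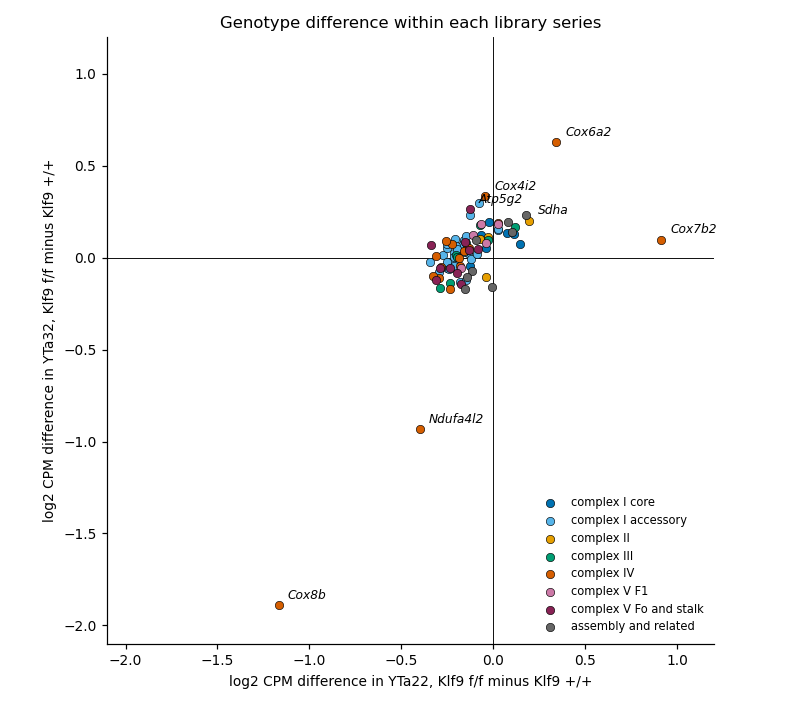
Genotype difference in log2 CPM (Klf9 f/f minus Klf9 +/+) of each gene in YTa22 (x, means of 2 samples each) and YTa32 (y, 1 sample each), coloured by complex. Most genes lie within a narrow cloud left of 0 on the x axis around a median of -0.15, and Ndufa4l2 and Cox8b lie below 0 on both axes.

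By complex, the median genotype fold changes on the log2 scale were small. They were -0.13 for the accessory and 0.054 for the core subunits of complex I, 0.0090 for complex II, -0.12 for complex III, -0.14 for complex IV, 0.000091 for F1, -0.17 for the Fo part and stalk and -0.041 for the assembly and related genes. Genotype fold change also went with coding length. Spearman's rho was 0.648 over the 89 genes and 0.184 over the 14000 genes tested that had a coding length. Members had medians of -0.14 under 600 base pairs, 0.013 from 600 to below 1200 and 0.094 from 1200 up. Over all genes these medians were -0.081, -0.0098 and 0.035. Length and complex were not tested apart, and genes are not independent replicates. Sdha had the highest fold change among the genes above 1 CPM in all samples, with 503, 495 and 503 CPM in Klf9 +/+ against 654, 498 and 579 CPM in Klf9 f/f. These samples overlapped, and the fold change of 0.21 ± 0.15 did not pass (edgeR adjusted p = 1.00). Atp5s, related to a coupling factor of ATP synthase, had 30.95, 31.04 and 22.28 CPM in Klf9 +/+ and 35.5, 34.6 and 26.2 CPM in Klf9 f/f (0.20 ± 0.13), and Uqcrc1, a core protein of complex III, had a fold change of 0.13 ± 0.13. At the other end, Cox7c (-0.28 ± 0.20), Atp5k (-0.27 ± 0.22) and Uqcrb (-0.27 ± 0.17) were lower without passing the test. Klf9 +/+ replicate 1 was the highest sample for all 3 of them, and the value for Atp5k became 0.010 without it.

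Ndufa4l2 (ENSMUSG00000040280, chr10:126951995-126954208 in mm9) encodes a relative of NDUFA4 that is known to be induced by hypoxia and is abundant in brain pericytes. In Klf9 +/+ it stood at 7.30, 6.02 and 7.09 CPM, and in Klf9 f/f at 5.11, 4.93 and 3.70 CPM. Klf9 f/f samples were lower within each series, with a log2 fold change of -0.58 ± 0.22 that passed 1.2-fold at an unadjusted p under 0.05 (edgeR adjusted p = 1.00). The call was lost without the series term, in YTa22 alone and when any of 4 samples was left out (Klf9 +/+ 1 or 3, Klf9 f/f 2 or 3), while the fold change stayed between -0.61 and -0.41 in these settings. Of 8 pericyte and mural markers, all were measured above 0 and all had fold changes below 0 (median -0.84). Of these, 4 passed 1.2-fold and an unadjusted p under 0.05 (Kcnj8, Abcc9, Tagln and Acta2), against 2.50% of all genes. Kcnj8 and Abcc9 stood at only 0.54 to 8.59 CPM. The summed level of the 8 ran from 575 to 1037 CPM in Klf9 +/+ and from 429 to 745 CPM in Klf9 f/f. Its largest part in every sample was Vtn, which was not called (-0.16 ± 0.24). Fewer cells of a type and less RNA per cell cannot be told apart in such samples, and the part of these cells in the value of Ndufa4l2 was not tested.

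Cox8b (ENSMUSG00000025488, chr7:148084842-148086345), the heart and muscle form of subunit 8, was at 1.11, 0.64 and 1.27 CPM in Klf9 +/+ and 0.47, 0.26 and 0.31 CPM in Klf9 f/f. It had a log2 fold change of -1.45 ± 0.47 and passed the same threshold (edgeR adjusted p = 1.00). The gene entered the test only through Klf9 +/+ samples above 1 CPM, so the filter itself favoured a difference, and the call was lost in YTa22 alone and without any of the same 4 samples, with fold changes of -1.29 to -1.23 in these settings. Cox7b2 entered through Klf9 f/f samples alone, and Cox6a2 through Klf9 f/f replicate 2 alone. Cox7b2 had 0.89, 0.64 and 0.16 CPM in Klf9 +/+ and 1.97, 1.09 and 0.18 CPM in Klf9 f/f (0.86 ± 0.45), and Cox6a2 had a fold change of 0.43 ± 0.41; neither passed the test.

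**Figure D5:**
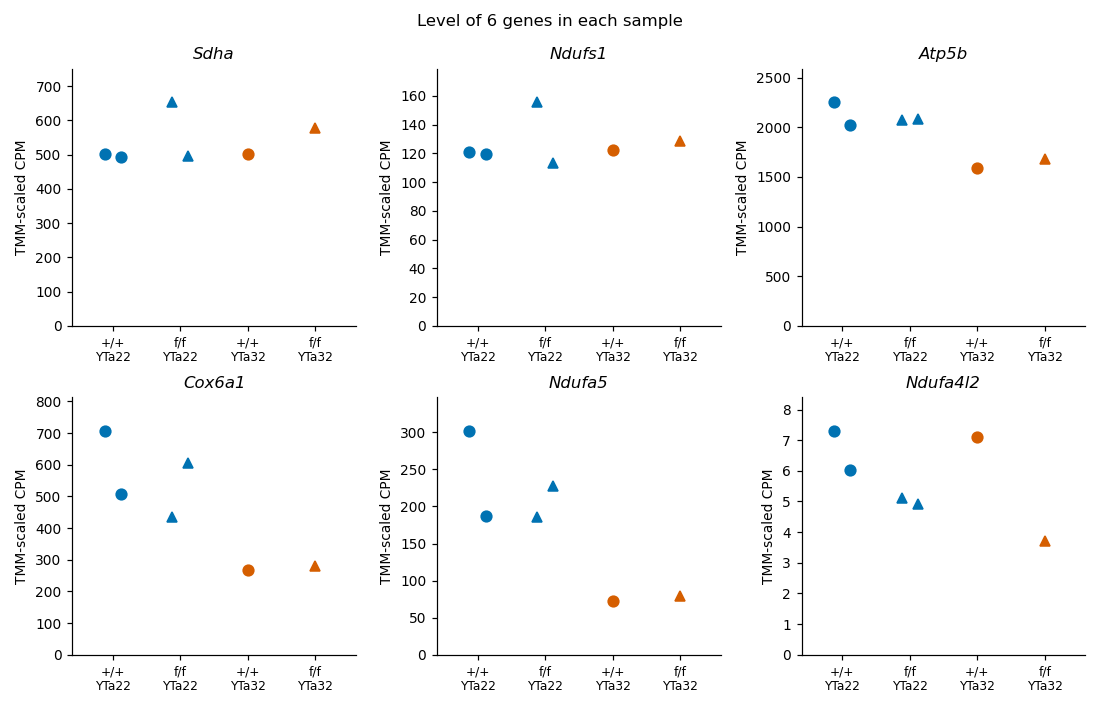
TMM-scaled CPM of 6 genes in each sample, with axes from 0; circles are Klf9 +/+, triangles Klf9 f/f, blue YTa22 and orange YTa32, and each point is 1 sample. Sdha and Ndufs1 overlap between the series, Atp5b, Cox6a1 and Ndufa5 are lower in YTa32, and Ndufa4l2 is lower in Klf9 f/f within each series (5.11 and 4.93 against 7.30 and 6.02 CPM, and 3.70 against 7.09 CPM).

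Several subunits are made in alternative forms from separate genes, and in each such set of complex IV the ubiquitous form was the more abundant per length. Cox4i1 had a mean level of 975 FPKM and Cox4i2, a form known from lung and from oxygen-regulated cells, 12.8 FPKM. Cox6b1 stood at 792 FPKM and Cox6b2, known from testis, at 27.7 FPKM, and Cox8a at 777 against 1.88 FPKM for Cox8b. Cox7a2 stood at 337 FPKM, the supercomplex factor Cox7a2l at 51.5 FPKM and the muscle form Cox7a1 at 7.45 FPKM. Ndufa4 stood at 876 FPKM and Ndufa4l2 at 5.93 FPKM. The sample ranges did not meet in any of these sets. The genotype fold changes of the abundant forms were -0.09 ± 0.17 for Cox4i1, -0.12 ± 0.19 for Cox6a1, -0.15 ± 0.18 for Cox6b1, -0.23 ± 0.16 for Cox7a2, -0.14 ± 0.16 for Cox8a and -0.21 ± 0.17 for Ndufa4 on the log2 scale, and none passed the test. The 3 genes for the c-ring subunit encode the same mature protein. Atp5g3 led with 249 FPKM, followed by Atp5g2 at 69.9 FPKM and Atp5g1 at 36.5 FPKM. With the series pooled, the sample ranges of Atp5g2 (43.5 to 90.1 FPKM) and Atp5g1 (22.1 to 52.2 FPKM) overlapped. The repeated windows of Atp5g2 leave its place uncertain.

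Other mitochondrial genes were counted in the same fit. Over all genes tested, 16.6% were called lower and 12.9% higher in YTa32, and 4.32% were called by genotype. Of 77 genes for mitochondrial ribosomal proteins, 64 were lower and 1 higher in YTa32 (median log2 difference -0.80), and 0 were called by genotype (median fold change -0.047). Of 29 tested genes for further assembly factors, electron carriers and other proteins of the complexes, 14 were lower in YTa32 (median -0.42) and 0 were called by genotype. Cyc1 and Usmg5, whose symbols fall outside the rule of the set, were among the 29. The 17 genes of the TCA cycle and pyruvate dehydrogenase had a median series difference of -0.23, with 5 lower and 1 higher in YTa32. Samples of Cs, the citrate synthase that opens the cycle, overlapped between the series, and its difference of 0.15 ± 0.15 did not pass the test. By genotype, 14 of the 17 had fold changes above 0 (median 0.079) and 0 were called. Among 13 regulators of mitochondrial biogenesis, 3 were higher in YTa32 and 0 lower. These were Esrra, an orphan receptor that acts with PGC-1 coactivators (0.86), Polg, the mitochondrial DNA polymerase (0.95), and Polrmt, the mitochondrial RNA polymerase (0.65). The 13 genes had a median exonic length of 4685 base pairs, and 20.2% of all genes of 4 kb and over were called higher. None of the 13 was called by genotype, including Ppargc1a, the gene of PGC-1alpha (0.21 ± 0.15).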

How the data were processed

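Ribosome-bound mRNA of 6 samples was analysed. As the study's methods describe, SMARTer v4 libraries were sequenced as 50 bp reads, mapped with STAR to mm9 and counted per gene with HTSeq 0.6.0 without regard to strand. The authors deposited whole-number counts without normalization. The 5 HTSeq summary lines entered no test. Symbols, exons and coding lengths came from GENCODE M1 (mm9), which named 37205 of 37620 identifiers. The 15056 genes that passed 1 CPM in any sample were fitted with edgeR 4.0.16 under R 4.3.3 (TMM, glmQLFit and glmQLFTest) with library series and genotype as terms, which left 3 residual degrees of freedom, or 2 with their interaction. Calls used 1.2-fold with an unadjusted p under 0.05, after the study's methods, or a Benjamini-Hochberg adjusted p under 0.05. SE is the size of a log2 fold change divided by the square root of F. Log2 CPM used a prior count of 2. The script was first tested on simulated data.

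Depth ran from 21594714 to 66343759 counts on genes per sample. Replicates were numbered in accession order, each is a separate pool of mice, and p values measure the spread between these pools. The member genes and the lists of other mitochondrial and marker genes were chosen with earlier results of these data known. Genes named were all of complex II, the highest and lowest by FPKM in each other group, those called by genotype, the 5 highest and lowest by genotype and by series difference, the 3 smallest interaction p values, and sets of alternative forms. Any other gene was named after its values were seen, and coding lengths were added after seeing the data. The values of 1 gene are not reported here by name, though it is kept in the counts and medians. Alternatives were other tests, including DESeq2 1.42.0, normalizations, filters, lengths and prior counts, YTa22 alone, and each sample left out.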

Additional observations from a re-analysis of the deposited data

How the results depend on the processing

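The number of genes lower in Klf9 f/f was 1 without the series term and 0 in YTa22 alone in place of 2, and 0 to 4 when 1 sample was left out. The number lower in YTa32 was 67 to 77 when 1 YTa22 sample was left out, and 72 to 78 under the other tests, normalizations and filters. It fell further when either YTa32 sample was left out, in the set and also over all genes tested. Leaving out a YTa32 sample leaves a single sample in that series, which is then assumed to vary like the others. The median genotype fold change ran from -0.23 to 0.064 on the log2 scale over the samples left out and the median series difference from -1.06 to -0.84. With mean transcript lengths the median level was 245.0 in place of 138.6 FPKM. The direction turned for Atp5k by genotype (-0.46 to 0.010 over the samples left out, the latter without Klf9 +/+ replicate 1) and for Sdha by series (-0.070 to 0.10, the former without Klf9 f/f replicate 2), and the cause was not tested. Of the other values for single genes, 221 kept their direction and their side of the threshold, 46 no longer passed it and 3 newly passed it. No paired analysis was possible because the labels number libraries and not replicates shared between the genotypes. Cox6a2, Cox7b2 and Cox8b, which were below 1 CPM in some samples, have the fewest counts and the widest errors.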

Other observations

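Among the remaining cell type markers, all 8 of endothelium had genotype fold changes below 0 (median -1.02 on the log2 scale), and 2, Flt1 and Cldn5, passed 1.2-fold and an unadjusted p under 0.05. Their summed level ran from 133 to 339 CPM in Klf9 +/+ and from 50.3 to 215 CPM in Klf9 f/f. All 12 choroid plexus markers passed the same threshold as lower in Klf9 f/f (median -2.65), against 2.50% of all genes. Their smallest adjusted p was 0.14 (Calml4, edgeR quasi-likelihood test). Of 12 radial glia and astrocyte markers, 11 had fold changes above 0 (median 0.21). Gfap and Aldoc passed the unadjusted threshold as higher, against 1.82% of all genes. Of 8 granule neuron markers and 6 microglial markers, 0 were called, with medians of -0.039 and 0.059. Their part in the values of the oxidative phosphorylation genes was not tested.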
